A study of Rattus norvegicus with 20 samples.

Results

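Reactive astrocytes are described here through 9 genes that mark the glial scar: the intermediate filament genes Gfap, Vim, Nes and Synm, the secreted or matrix protein genes Serpina3n, Lcn2 and Tnc, and the signalling genes S1pr3 and Stat3. The genes are the rows of the expression table that carry those symbols, a rule that reads no measured value, although the list was drawn up with earlier results of these data known. Of the 9, 7 have a row in the table of 30443 genes, and all 7 are among the 15210 genes that reached an FPKM (a fragment density scaled to transcript length and to the number of mapped reads) of 1 in at least 1 library. Nes and Serpina3n have no row under their symbols and were not analysed here. The identifiers of the 7 are ENSRNOG00000002919 for Gfap, ENSRNOG00000018087 for Vim, ENSRNOG00000014030 for Synm, ENSRNOG00000013973 for Lcn2, ENSRNOG00000058645 for Tnc, ENSRNOG00000014524 for S1pr3 and ENSRNOG00000019742 for Stat3.

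RNA-seq libraries were made from 20 tissue blocks, 5 from each of 4 adult female Long-Evans rats without genetic modification, about 6 to 8 months old. Every animal, controls included, had a hemicontusion of the cord at cervical level C4, with the tissue displaced by 0.7 mm, and 2 weeks later an electrode array in the motor cortex opposite the injured side. In the 2 stimulated animals that cortex received pulses at 10 Hz for 5 h a day during 1 week, in cycles of 5 min on and 2 min off, at 80% of the current that evoked movement. The 2 control animals were tethered to a sham device and did not receive this stimulation. Region 1 is the white matter under the array (implanted side), region 2 the white matter of the opposite hemisphere, region 3 the cord rostral to the injury, region 4 the lesion and region 5 the cord caudal to it. No uninjured or unimplanted animal is among the samples, so every contrast of regions is a contrast between places in injured, implanted animals. Each region therefore has 4 libraries, 2 stimulated and 2 control. Within a region a p-value rests on the spread between these few animals, drawn toward the spread of other genes of similar level. The main fit of the contrasts of regions counts the libraries of 1 animal as separate units. A p-value there rests on the spread between libraries that come from only 4 animals, drawn toward that of other genes in the same way.

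Astrocytes answer injury of the central nervous system by enlarging and by filling with intermediate filaments, which in these cells are built from glial fibrillary acidic protein, vimentin, nestin and synemin. Stat3, switched on through the gp130 family of cytokine receptors, is required for much of this programme and for the formation of the scar border around a cord lesion. Reactive astrocytes also release proteins such as lipocalin 2 and, with other cells, the matrix protein tenascin-C. Several of these genes are shared with other cells: vimentin is made by microglia, endothelium and fibroblasts, lipocalin 2 by neutrophils, and tenascin-C by progenitor cells and fibroblasts.

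Each block is a mixture of cells. In such bulk samples, fewer cells of a type and less RNA per cell cannot be told apart. Between 12497 and 13546 genes reached an FPKM of 1 in a library, and the files hold no read counts, so the depth behind single values is unknown. All 12 astrocyte markers of a fixed list that leaves out the 9 genes (Aqp4, Aldh1l1, Slc1a3 and others) were measured, and their summed level was 1616 to 2281 FPKM in the 8 white matter libraries and 2861 to 3973 FPKM in the 12 cord libraries. Neuronal markers summed to 1111 to 1876 FPKM in the libraries labelled white matter, and oligodendrocyte markers to 721 to 2982 FPKM there, against 7537 to 10957 FPKM in the cord. The blocks labelled white matter thus contained neuronal RNA. The libraries of stimulated animal 2 stand apart in the brain. In region 1 its neutrophil markers summed to 113 FPKM, against 0.75 to 2.14 in the other 3 libraries. Of that sum S100a9 made 77.4 and S100a8 34.5. The listed markers Mpo, Ngp, Camp and Elane stood at only 0.1, 0.112, 0.284 and 0.371 FPKM in the same library. The neutrophil granule gene Ltf was at the floor of 0.1 in every library. Counts of calls in the white matter are therefore also given without this animal.

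The sequences before the starts of 4 of the genes are shown because these genes represent the different patterns seen below. Gfap and Vim moved together across the libraries, Tnc had its own order of regions, and Lcn2 was high in few libraries. Each is the 250 bases before the RefSeq gene start, 5′ to 3′ on the gene's strand, from build GRCr8, at chr10:88361662-88361911, minus strand, for Gfap; chr17:81577011-81577260, plus strand, for Vim; chr5:82476132-82476381, minus strand, for Tnc; and chr3:36081781-36082030, minus strand, for Lcn2. The expression values were made on another build, and no coordinates were carried between builds. Capitals mark matches to 4 motifs searched on both strands: TTCNNNGAA and TTCNNNNGAA, the paired half-sites that STAT proteins bind, TTGCNNAA, bound by C/EBP factors, and TATAAA, the TATA box.
Gfap: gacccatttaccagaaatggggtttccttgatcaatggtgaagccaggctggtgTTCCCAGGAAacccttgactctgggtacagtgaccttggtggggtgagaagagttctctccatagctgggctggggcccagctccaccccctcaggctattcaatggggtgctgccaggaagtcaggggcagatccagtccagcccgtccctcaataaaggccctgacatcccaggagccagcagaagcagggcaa
Vim: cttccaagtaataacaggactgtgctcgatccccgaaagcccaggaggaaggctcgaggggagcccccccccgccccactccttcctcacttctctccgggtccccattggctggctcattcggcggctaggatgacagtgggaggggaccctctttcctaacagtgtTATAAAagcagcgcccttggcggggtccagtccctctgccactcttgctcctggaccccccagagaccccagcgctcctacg
Tnc: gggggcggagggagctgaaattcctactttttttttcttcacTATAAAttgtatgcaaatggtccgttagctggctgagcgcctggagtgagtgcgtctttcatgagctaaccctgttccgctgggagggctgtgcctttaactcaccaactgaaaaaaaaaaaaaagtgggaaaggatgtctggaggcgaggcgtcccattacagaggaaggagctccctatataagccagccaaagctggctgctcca
Lcn2: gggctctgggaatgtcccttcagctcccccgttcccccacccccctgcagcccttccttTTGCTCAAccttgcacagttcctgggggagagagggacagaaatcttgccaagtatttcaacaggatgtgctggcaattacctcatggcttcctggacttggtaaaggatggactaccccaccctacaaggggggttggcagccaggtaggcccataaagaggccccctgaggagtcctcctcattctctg

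The Gfap window holds 1 match to TTCNNNNGAA, beginning 196 bases before the start, the Lcn2 window 1 match to TTGCNNAA, 191 bases before it, and the Vim and Tnc windows 1 match each to TATAAA, 82 and 208 bases before it. TTCNNNGAA had no match in any of the 7 windows. Synm, S1pr3 and Stat3 held none of the 4 motifs. Nearer the gene start than its match, the Tnc window also holds the letters tatataa, which differ from TATAAA and are not marked. Of all 33469 RefSeq windows of this length, 6.25% hold TTCNNNNGAA, 7.67% TTCNNNGAA, 9.22% TTGCNNAA and 12.9% TATAAA, so these letters are common, and a match describes the sequence without showing that a factor binds it.

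Among the filament genes, Gfap, the defining filament protein of astrocytes, had the highest level by far. In FPKM, control animals 1 and 2 and stimulated animals 1 and 2 had 353, 410, 680 and 884 in region 1 and 91.4, 70.1, 70.6 and 678 in region 2. The same animals, in the same order, had 1157, 823, 1225 and 943 in region 3, 1836, 1571, 2159 and 1456 at the lesion and 1945, 1754, 1888 and 2051 in region 5. The lesion and caudal libraries were the highest, and every one of them lay above all 4 rostral libraries. In region 2, 3 libraries lay between 70.1 and 91.4 FPKM and stimulated animal 2 stood at 678. The mean was 1910 ± 124 FPKM (SD, n = 4) in region 5 and 228 ± 301 FPKM (SD, n = 4) in region 2, where Gfap still exceeded 99.5% of the 15210 genes.

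Vim encodes vimentin and is made by many non-neuronal cells as well as by reactive astrocytes. Like Gfap, Vim had its highest means at the lesion and caudally and its lowest in region 2. The Vim mean was higher in region 1 than in region 3, the reverse of Gfap, but only through the stimulated animals. In both control animals Vim was lower in region 1 than in region 3, as Gfap was. Taking the animals in that order again, its levels were 84.8, 59.6, 122 and 199 FPKM in region 1 and 20.8, 16.3, 14.1 and 85.1 FPKM in region 2. They were 101, 66.1, 84.9 and 70.6 FPKM in region 3, 216, 196, 196 and 127 FPKM at the lesion and 205, 157, 182 and 227 FPKM in region 5. Here too the lesion and caudal libraries all lay above the rostral ones, and stimulated animal 2 stood alone in region 2.

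Synm, encoding synemin, a filament protein that co-assembles with vimentin, had the smallest ratio of highest to lowest library of the 7, 11.5 over 3.77 FPKM. Its means were 6.12 ± 1.30, 4.62 ± 0.777, 8.00 ± 0.978, 8.48 ± 0.695 and 10.1 ± 1.61 FPKM (SD, n = 4 each) in regions 1 to 5. All 12 cord libraries, from 6.97 to 11.5 FPKM, lay above all 8 white matter libraries, from 3.77 to 6.96 FPKM. In region 1 the lowest library was stimulated animal 2, at 4.18 FPKM against 6.63 to 6.96 in the other 3, the opposite side from its place for Gfap and Vim.

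Of the secreted proteins, Lcn2, encoding lipocalin 2, a siderophore-binding protein of the acute response, was near the bottom of the measured range in most libraries. It was listed at the floor of 0.1 FPKM in 5 of 20 libraries, those of control animal 2 and stimulated animal 1 in regions 1 and 2 and of control animal 2 in region 3. Only 5 libraries exceeded 1 FPKM: those of control animal 1 in regions 1, 4 and 5, at 1.41, 3.02 and 1.23, and those of stimulated animal 2 in regions 1 and 2, at 6.76 and 2.92. Lcn2 thus separated animals more than regions or treatments, and in regions 3, 4 and 5 the highest of the 4 libraries was each time control animal 1.

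Tnc, encoding the matrix glycoprotein tenascin-C, had an order of regions unlike the other genes. Only Lcn2 shared its ends, with the highest mean in region 1 and the lowest in region 3. For the same 4 animals its levels were 2.24, 2.38, 3.81 and 4.29 FPKM in region 1 and 0.617, 0.568, 0.587 and 1.48 FPKM in region 2. They were 0.714, 0.746, 0.409 and 0.519 FPKM in region 3, 2.13, 1.92, 1.46 and 1.20 FPKM at the lesion and 1.99, 2.16, 1.60 and 2.05 FPKM in region 5. All 4 libraries of the implanted white matter lay above every library of the other 4 regions. The rostral cord, not region 2, had the lowest mean, through the stimulated animals. In control animals 1 and 2 region 2 was the lower, at 0.617 and 0.568 FPKM against 0.714 and 0.746.

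Of the signalling genes, S1pr3, a receptor for sphingosine 1-phosphate, had 3.31, 2.47, 4.07 and 15.4 FPKM in region 1 and 1.58, 1.23, 1.18 and 7.37 FPKM in region 2. It had 4.86, 2.48, 3.54 and 3.15 FPKM in region 3, 9.46, 6.36, 7.99 and 6.39 FPKM at the lesion and 8.68, 6.22, 6.44 and 8.22 FPKM in region 5. The highest of the 20 libraries was thus stimulated animal 2 in region 1. Stat3, the transcription factor downstream of gp130, ranged from 12.7 to 26.5 FPKM in region 1, 6.89 to 19.2 in region 2, 12.5 to 16.2 in region 3, 15.9 to 24.9 at the lesion and 20.4 to 22.7 in region 5. Its highest library in both white matter regions was again stimulated animal 2.

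**Figure D1:**
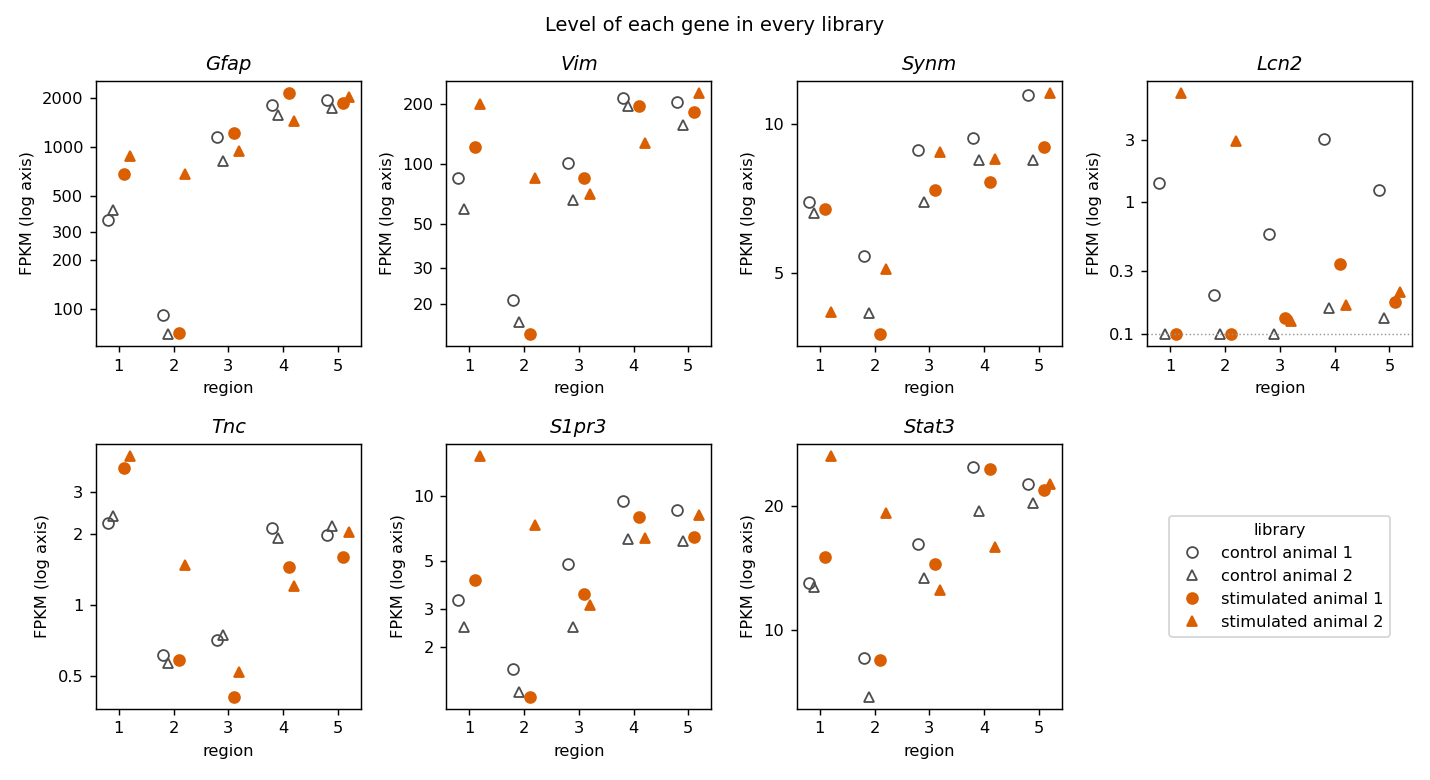
FPKM (vertical axis, logarithmic) of each of the 7 measured genes in regions 1 to 5 (horizontal axis), 1 point per library, grey open symbols for control and orange filled symbols for stimulated animals, circles for animal 1 and triangles for animal 2 of each group. The dotted line in the Lcn2 panel is the floor of 0.1 FPKM, and stimulated animal 2 is the highest point in region 2 for every gene but Synm.

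In the order of mean levels, region 5 and the lesion came first for Gfap, Vim, Synm and Stat3, with means that differed by 1.03 to 1.19 times and ranges that overlapped. For S1pr3 the lesion came first, at 7.55 ± 1.49 FPKM, and region 5 next, at 7.39 ± 1.24 FPKM (SD, n = 4 each), again with overlapping ranges. Region 2 came last for Gfap, Vim, Synm, S1pr3 and Stat3. Between neighbours in these orders, the ranges failed to overlap for Gfap between the lesion and region 3 (a ratio of means of 1.69), for Synm between regions 3 and 1 (1.31), and for Tnc between regions 1 and 5 (1.63). All other neighbours overlapped.

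The comparison of the lesion with the cord rostral to it asks how these genes differ between those neighbouring blocks. In every one of the 4 animals, Gfap, Vim, Lcn2, Tnc, S1pr3 and Stat3 had more RNA at the lesion than rostrally. Outside control animal 1, the Lcn2 values were near the floor, at 0.158 to 0.338 FPKM at the lesion and 0.1 to 0.132 rostrally. The within-animal ratio was 1.54 to 1.91 for Gfap, 1.80 to 2.96 for Vim, 2.31 to 3.56 for Tnc, 1.95 to 2.57 for S1pr3 and 1.27 to 1.70 for Stat3, whereas Synm, at 0.966 to 1.21, was higher in 3 of 4 animals. The groups of 4 libraries did not overlap for Gfap, Vim, Tnc and S1pr3, 4 of the 7, where 13% of all genes tested were higher without overlap. In the fit over all regions (limma on log2 FPKM, Benjamini-Hochberg adjustment over 15210 genes), only Tnc passed the threshold of 0.05, at 1.49 on the log2 scale with an SE of 0.30 and an adjusted p of 0.0023. That is 1 of 7 genes higher, against 6.78% of all genes.

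For Vim the log2 fold change was 1.18 (SE 0.43, limma adjusted p = 0.0592), and with the animal as a block it passed, with an adjusted p of 0.0442, where 8.79% of all genes were called higher. For S1pr3 it was 1.13 with a 95% interval of 0.05 to 2.21 (limma adjusted p = 0.128), and for Gfap 0.76 with an interval of −0.29 to 1.81 (limma adjusted p = 0.298). The spread in that fit is shared by all 5 regions, including region 2 with its single high library. Without stimulated animal 2, 5 of the 7 genes passed (Gfap, Vim, Tnc, S1pr3 and Stat3), where 15.7% of all genes tested were then called higher, and Gfap then stood at 0.81 on the log2 scale with an adjusted p of 0.0224 (limma). Markers of other cells moved with the same contrast: the summed level of 8 microglial and macrophage markers was 97.2 to 144 FPKM rostrally and 188 to 358 at the lesion, that of 5 Schwann cell markers 17.4 to 67.8 and 80.5 to 117, that of 7 fibroblast and meningeal markers 31.6 to 45.4 and 47.7 to 83.9, and that of 8 neuronal markers 1200 to 1499 and 865 to 1099. The 12 astrocyte markers were at 3053 to 3472 FPKM rostrally and 2861 to 3594 at the lesion, and none of the 12 passed the test in either direction. The part of these cells in the values of the 7 genes was not tested.

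Caudal to the injury, all 7 genes were higher than rostrally in all 4 animals. Outside control animal 1, the Lcn2 values were near the floor, at 0.132 to 0.209 FPKM caudally and 0.1 to 0.132 rostrally. The within-animal ratio was 1.54 to 2.18 for Gfap, 2.03 to 3.22 for Vim, 1.21 to 1.31 for Synm and 2.78 to 3.94 for Tnc. Gfap, Vim, Tnc, S1pr3 and Stat3 did not overlap between the regions, 5 of 7 genes, where 20.5% of all genes were higher without overlap. Tnc passed the test, at 1.74 on the log2 scale with an SE of 0.30 (limma adjusted p = 0.0037), which is 1 of 7 where 2.77% of all genes were called higher. Without stimulated animal 1 its log2 fold change was 1.66 and its call was lost (limma adjusted p = 0.0746), where 0.237% of all genes were still called higher. Without stimulated animal 2 Vim, S1pr3 and Stat3 passed as well, 4 of 7 where 5.4% of all genes were called higher. The next largest was Vim, at 1.26 (SE 0.43, limma adjusted p = 0.0943). Microglial and macrophage markers summed to 189 to 222 FPKM caudally against 97.2 to 144 rostrally, fibroblast and meningeal markers to 54.4 to 167 against 31.6 to 45.4, and Schwann cell markers to 89.0 to 240 against 17.4 to 67.8. The 2 stimulated animals were the highest caudally, at 99.7 and 167 FPKM for the fibroblast and 237 and 240 for the Schwann cell markers. The part of these cells was not tested.

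The lesion and the caudal cord were not told apart by any of the 7 genes. None passed the test (limma), while 7.99% of all genes did in either direction, and none of the 7 reached an unadjusted p under 0.05, where 4406 of 15210 genes did. The log2 fold changes, lesion over caudal cord, ran from −0.24 for Synm and Tnc to 0.55 for Lcn2. The 95% interval was −1.19 to 0.92 for Gfap, −0.98 to 0.81 for Vim and −0.87 to 0.38 for Tnc.

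**Figure D2:**
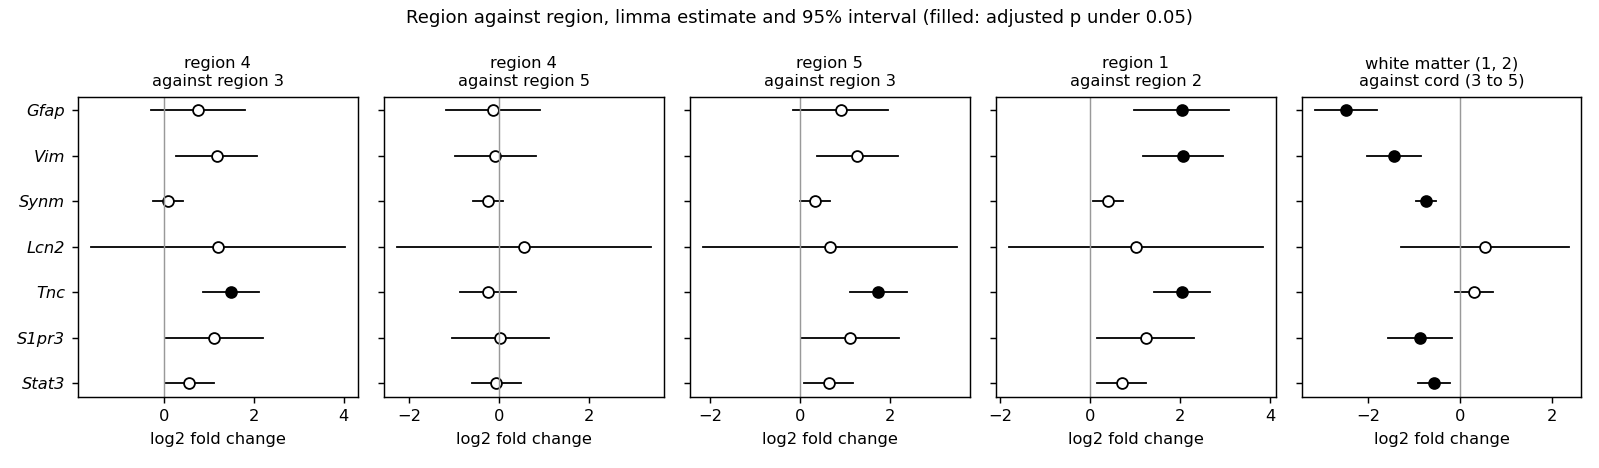
Log2 fold change (horizontal axis) of each gene in 5 contrasts of regions, 1 panel each, as points with 95% intervals from limma, filled where the adjusted p was under 0.05. Tnc is filled in regions 4 and 5 against region 3 and in region 1 against region 2, where Gfap and Vim are filled too, and in white matter against cord 5 genes are filled below 0.

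The comparison of the implanted with the opposite white matter sets tissue under the array against tissue without it, in hemispheres that also differ in their relation to the injured side. Gfap, Vim and Tnc were higher on the implanted side, by log2 fold changes of 2.04 (SE 0.50, limma adjusted p = 0.0192), 2.06 (SE 0.43, limma adjusted p = 0.0083) and 2.04 (SE 0.30, limma adjusted p = 0.0012). These are 3 of 7 genes, where 6.86% of all genes tested were called higher. Without the expression filter Gfap did not pass (limma adjusted p = 0.137), where 1.6% of all genes were called higher. All 3 were higher in 4 of 4 animals, with within-animal ratios of 1.30 to 9.62 for Gfap, 2.34 to 8.70 for Vim and 2.89 to 6.49 for Tnc. In stimulated animal 2 the Gfap ratio was 1.30, the lowest of the 4, since its region 2 library was itself high. Only Tnc did not overlap between the sides, where 4.4% of all genes were higher without overlap.

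S1pr3 and Stat3 were also higher on the implanted side in 4 of 4 animals, by 2.00 to 3.46 and 1.38 to 1.85 times, and did not pass (limma adjusted p = 0.143 and 0.0981). Synm differed by 0.39 on the log2 scale, with an SE of 0.16 (limma adjusted p = 0.127), and was higher in 3 of 4 animals. How many genes passed turned on which animals were kept. Without stimulated animal 1 none of the 7 passed, where 0.0855% of all genes were then called higher. Without control animal 1 or control animal 2 only Tnc did, where 0.46% and 0.368% were. Without stimulated animal 2, 6 of 7 passed, all but Lcn2, where 21.6% of all genes were called higher, and the same 6 did not overlap, where 32.4% of all genes were higher without overlap. Leaving out its region 2 library alone, 5 of 7 passed, where 20% were called higher, and Gfap had a log2 fold change of 2.82.

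Other cell markers differed between the same sides. The summed level of 7 fibroblast and meningeal markers was 35.4 to 208 FPKM in region 1 and 9.07 to 51.2 in region 2, with Col1a2 at the floor in every library. That of 7 oligodendrocyte markers was 1525 to 2982 against 721 to 1406 FPKM, that of 5 oligodendrocyte progenitor markers 64.2 to 83.7 against 33.6 to 59.5, and that of 8 microglial and macrophage markers 110 to 245 against 49.9 to 258, the 258 being stimulated animal 2. The 12 astrocyte markers summed to 1650 to 2281 against 1616 to 2026 FPKM, and 2 of them, the water channel gene Aqp4 and the transcription factor gene Sox9, were higher in region 1, with log2 fold changes of 0.86 and 0.71 (limma adjusted p = 0.0178 and 0.0166). Both kept their calls without stimulated animal 2 and lost them without any 1 of the other 3 animals. The part of these cells in the difference was not tested.

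Between the brain and the cord, 5 of the 7 genes were lower in white matter, where 47.1% of all genes were called lower, so this count says little about these genes in particular. The log2 fold changes, white matter over cord, were −2.49 for Gfap, −1.44 for Vim, −0.74 for Synm, −0.88 for S1pr3 and −0.56 for Stat3, with limma adjusted p-values of 1.36e-06, 0.000126, 2.69e-06, 0.0248 and 0.0057. Tnc and Lcn2 did not pass, at 0.30 and 0.54 (limma adjusted p = 0.169 and 0.589). Only Synm did not overlap between the tissues, where 16.8% of all genes were lower without overlap, and without stimulated animal 2 Gfap did not overlap either, where 24.2% were. The calls of S1pr3 and Stat3 were lost without control animal 1, control animal 2 or stimulated animal 1, leaving 3 of 7, where 40.1%, 40.8% and 41.6% of all genes were called lower. The call of S1pr3 was also lost with quantile scaling (limma adjusted p = 0.0543), where 39.6% were called lower, and without the filter (0.0648), where 26% were, and with quantile scaling Tnc was called higher in white matter, by 0.59, where 33.2% of all genes were. Of the 12 astrocyte markers outside the list, 9 were lower in white matter and 2, the glutamate transporters Slc1a2 and Slc1a3, were higher. Microglial and macrophage markers summed to 49.9 to 258 FPKM in white matter and 97.2 to 358 in cord, and the part of such differences in makeup was not tested.

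The comparison of stimulated with control animals, made in each region apart, asks whether a week of cortical stimulation altered these genes. None of the 7 passed in any region (limma, 2 against 2 animals), and among all 15210 genes 0% passed in regions 1 to 4 and 0.0197%, 3 genes, in region 5. With 2 animals in each group an exact permutation test of 1 gene cannot go below a two-sided p of 0.333. At an unadjusted limma p under 0.05 there were 3 of the 7 genes in region 1 and 1 each in regions 3 and 4, and 828, 522 and 341 of all genes in those regions. No gene of regions 2 and 5 did, where 215 and 546 of all genes did.

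In region 1, under the array, both stimulated animals lay above both controls for Gfap, Vim, Tnc, S1pr3 and Stat3, 5 of 7 genes, where 21.2% of all genes were higher without overlap. The log2 fold changes were 1.03 for Gfap (SE 0.27), 1.14 for Vim (SE 0.33), 0.81 for Tnc (SE 0.17), 1.47 for S1pr3 (SE 0.72) and 0.63 for Stat3 (SE 0.31), each with a limma adjusted p of 0.712. The 95% interval was 0.26 to 1.79 for Gfap, 0.19 to 2.08 for Vim and 0.34 to 1.28 for Tnc. The median log2 fold change of the 7 genes was 1.03, against −0.03 over all genes tested, and without stimulated animal 2 it was 0.51, against 0.064. Synm, at −0.36 (SE 0.28), and Lcn2, at 1.13 (SE 2.61), overlapped between the groups.

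The 2 stimulated animals contributed unequally. Stimulated animal 1 exceeded the higher control by 1.66 times for Gfap, 1.44 times for Vim, 1.60 times for Tnc, 1.23 times for S1pr3 and 1.15 times for Stat3. Stimulated animal 2 exceeded it by 2.15 times for Gfap, 2.35 times for Vim, 1.80 times for Tnc, 4.65 times for S1pr3 and 2.04 times for Stat3. For Tnc the 2 animals lay close together, whereas for S1pr3 and Stat3 most of the excess lay in the second animal. In that animal's region 1 library the neutrophil markers summed to 113 FPKM, nearly all of it S100a9 and S100a8. The fibroblast and meningeal markers summed to 208 FPKM there. In stimulated animal 1 these sums were 1.48 and 52.2 FPKM, within the controls' 0.75 to 2.14 and 35.4 to 57.2. Microglial and macrophage markers were at 169 and 245 FPKM in the stimulated animals and at 110 and 125 in the controls, and astrocyte markers at 1650 and 2281 against 1816 and 2000. Further sums did not overlap between the groups either. In stimulated animals 1 and 2, oligodendrocyte progenitor markers were at 83.7 and 69.1 FPKM against 64.2 to 67.9 in the controls, with red blood cell markers at 8.47 to 9.12 against 3.07 to 6.84 and ependymal markers at 2.36 to 3.01, above both controls. Neuronal markers were at 1476 and 1111 FPKM and pericyte and smooth muscle markers at 45.9 and 39.7, against 1612 to 1630 and 47.3 to 61.4 in the controls. Their part in the levels of the 7 genes was not tested.

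In region 2, on the side opposite the array, 6 of 7 log2 fold changes were above 0, from 0.66 for Tnc to 1.94 for Lcn2, with Synm at −0.11 (limma adjusted p of at least 0.949 for all). None separated the groups, where 27% of all genes did, and for those 6 genes stimulated animal 1 lay no higher than the higher control while stimulated animal 2 lay above both. Without the region 2 library of that animal the Gfap, Vim and S1pr3 changes were −0.18, −0.38 and −0.25. In region 3, Tnc was lower in both stimulated animals, at 0.409 and 0.519 FPKM against 0.714 and 0.746, a difference of −0.66 on the log2 scale (SE 0.16, limma adjusted p = 0.956), where 24.7% of all genes were lower without overlap. At the lesion Tnc was again lower in both, by −0.61 (SE 0.19, limma adjusted p = 1), where 7.69% of all genes were. In the same lesion libraries the fibroblast and meningeal markers summed to 47.7 and 71.4 FPKM with stimulation and 76.9 and 83.9 without it. The Schwann cell markers summed to 80.5 and 81.6 against 107 and 117. The lesion library of stimulated animal 1 also stood apart, with neutrophil markers at 30.4 FPKM against 2.04 to 4.18 in the others. Its red blood cell markers were at 208 FPKM against 17.2 to 32.8. The part of these cells in the Tnc values was not tested. In region 5 no gene separated the groups, where 24.6% of all genes did, and Gfap, with a change of 0.09 and a 95% interval of −1.35 to 1.53, was at 1754 to 1945 FPKM in controls and 1888 to 2051 in stimulated animals.

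**Figure D3:**
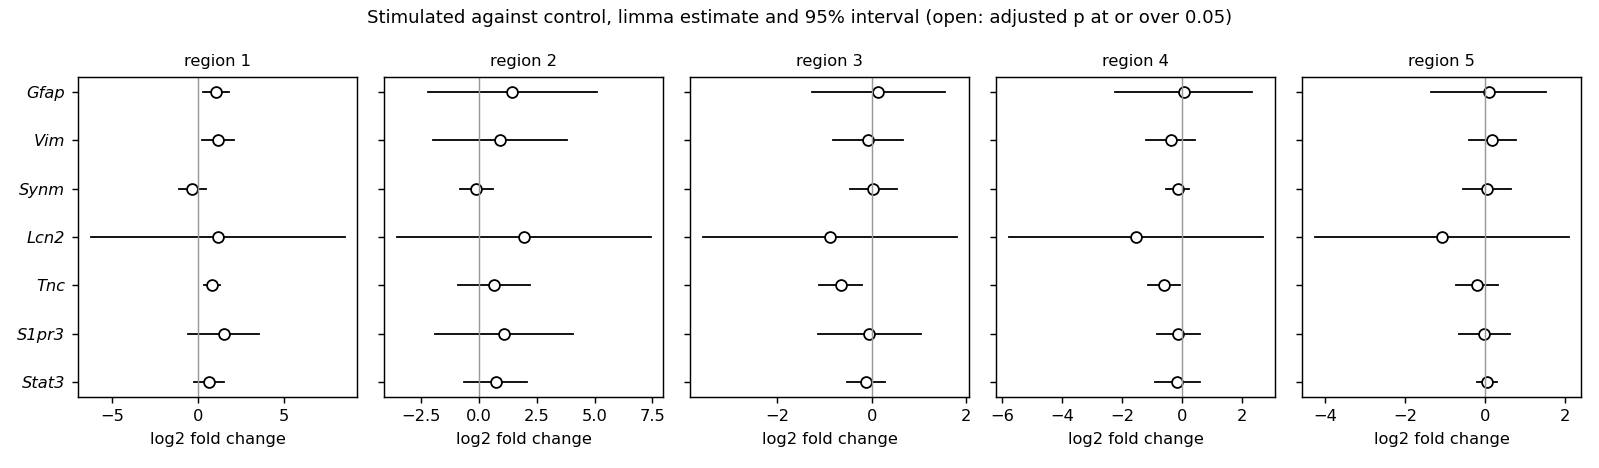
Log2 fold change of stimulated against control animals (horizontal axis, scaled separately in each panel) for each gene in regions 1 to 5, as points with 95% intervals from limma. All points are open since no adjusted p was under 0.05, and the intervals of Gfap, Vim and Tnc lie above 0 in region 1 while that of Tnc lies below 0 in regions 3 and 4.

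For Tnc, both stimulated animals thus lay above both controls under the array and below both in the rostral cord and at the lesion. The difference between the effects was 1.47 (SE 0.25) between regions 1 and 3 and 1.42 (SE 0.30) between regions 1 and 4, with unadjusted limma p-values of 0.0023 and 0.0080 and adjusted p-values of 0.877 and 0.508. Over all 10 pairs of regions and 7 genes, 70 differences in all, none passed the threshold and the smallest adjusted p was 0.508 (limma). An unadjusted limma p under 0.05 was reached by 9 of them. The 70 reuse the same 4 animals in overlapping pairs of regions, and no share of all genes stands beside the 9. That count is therefore not read as an excess in these genes. In 8 of the 10 pairs 0% of all genes passed, and in the other 2 pairs 0.0131% and 0.00657% did. The effects in regions 1 and 2 differed by −0.43 for Gfap, with a 95% interval of −3.30 to 2.45, and by 0.22 for Vim, with an interval of −1.61 to 2.06.

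Across the 20 libraries, which come from 4 animals and share region and tissue makeup, the 7 genes varied together to unequal degrees. Pearson's r of log2 FPKM over the 21 pairs ran from −0.04 to 0.97, with a median of 0.64. S1pr3 and Stat3 had r = 0.97, Vim and Stat3 0.95, Gfap and Vim 0.94 and Vim and S1pr3 0.93. Lcn2 with Synm, at −0.04, and Tnc with Synm, at 0.18, were the lowest. After the mean of each region was subtracted, Gfap and Vim kept r = 0.94 and S1pr3 and Stat3 0.94, while Synm with the other 6 genes lay between −0.15 and 0.07. These values include stimulated animal 2, which was far above the others in region 2 for Gfap and S1pr3 and lowest in region 1 for Synm. No such r is given without that animal, so they do not show how the genes vary together in the other animals. Without stimulated animal 2, 15 libraries remained and Synm had r = 0.92 with Gfap and 0.92 with S1pr3, against 0.80 and 0.49 over all libraries. The descriptions rest on few animals and carry no test.

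**Figure D4:**
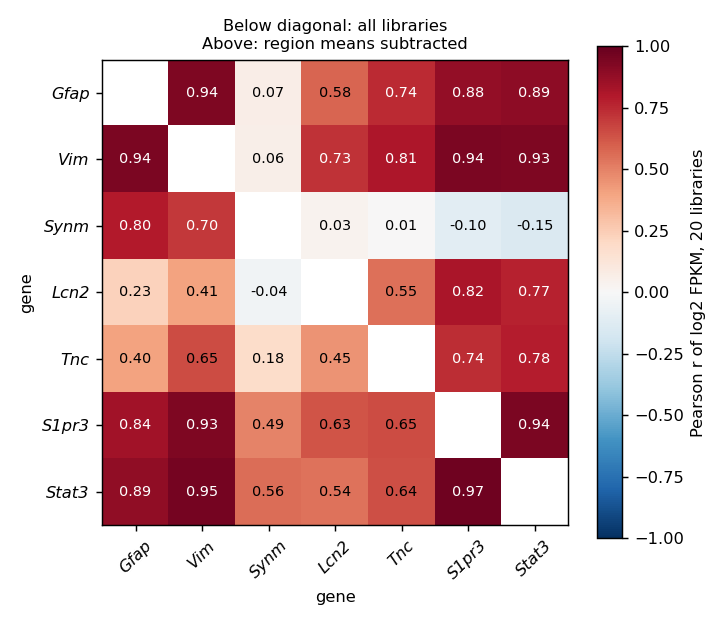
Pearson's r of log2 FPKM between each pair of genes over the 20 libraries (colour scale from −1 to 1, with the value in each cell), below the diagonal as measured and above it after the mean of each region was subtracted. Gfap, Vim, S1pr3 and Stat3 stay at 0.88 to 0.94 with each other above the diagonal, and Synm lies near 0 with all others. All values include stimulated animal 2, whose libraries stand apart in the brain.

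Among the 5 genes whose log2 FPKM followed the 7 most closely on average, by mean r over the 20 libraries, were Piezo1, S100a4, Lamc1 and Zc3hav1, each at 0.80. Of these, Piezo1 encodes a mechanically gated ion channel and Lamc1 a laminin chain. Singly, the closest gene was Gltp for Gfap (r = 0.99), Emp3 for Vim (0.99), Bace1 for Synm (0.96), Lcn2's closest was Sik1 (0.83), Tnc's was Emilin1 (0.93), S1pr3's was Hk2 (0.98) and Stat3's was Slc39a1 (0.99). With so few animals, genes that differ between brain and cord or in 1 library rank high by this measure.

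Other genes of the reactive programme were taken from fixed lists. Of 8 further pan-reactive astrocyte genes, 1 was called higher in implanted than in opposite white matter: Cd44, a hyaluronan receptor, at 15.1 ± 8.79 FPKM against 3.86 ± 3.91 (SD, n = 4 each), a log2 fold change of 2.22 (limma adjusted p = 0.0064), where 6.86% of all genes were called higher. None of the 8 was called between the lesion and the rostral cord, where 6.78% of all genes were called higher and the list's median log2 fold change was 1.27 against −0.02 over all genes. In white matter 6 were lower than in cord, where 47.1% of all genes were, among them the small heat shock protein gene Hspb1, at −3.18. All 8 were, without stimulated animal 2, called higher on the implanted side and at the lesion, where 21.6% and 15.7% of all genes were, and all 8 lower in white matter, where 51.1% were. Of 8 genes described as A1-type, Serping1, a complement inhibitor, was higher on the implanted side by 2.43 (limma adjusted p = 0.0459), and Amigo2 was lower at the lesion than rostrally, by −0.75 (limma adjusted p = 0.0028), where 12.8% of all genes were called lower, and than caudally, by −0.52 (limma adjusted p = 0.0460), where 7.06% were. Of 10 tested A2-type genes, 2 were higher at the lesion than rostrally, Slc10a6 at 1.54 and Cd109 at 1.34, 2 were higher caudally, Cd109 at 1.53 and S100a10 at 1.09, and 3 were higher on the implanted side, Cd109 at 1.20, Emp1 at 1.16 and S100a10 at 0.84. Of all genes, 6.78%, 2.77% and 6.86% were called higher in these contrasts. Cd109 had low means on both sides, 0.492 FPKM in region 1 and 0.212 in region 2. With that animal left out, 6 A1-type and 7 A2-type genes were called higher on the implanted side, where 21.6% of all genes were.

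In region 1, stimulation moved none of these past the threshold, and the list medians were 1.37, 0.85 and 0.65 for the pan-reactive, A1-type and A2-type genes, against −0.03 over all genes. Single libraries stood far apart here: Hspb1 ranged from 12.7 to 144 FPKM and Serping1 from 9.76 to 58.5 over the 4 libraries of region 1. Without stimulated animal 2 the 3 medians were 0.42, 0.30 and 0.27, against 0.064 over all genes. Without stimulated animal 1, 1 pan-reactive and 1 A2-type gene passed, where 1.5% of all genes did.

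Upstream of Stat3, 16 of 18 listed genes of gp130 cytokines, their receptors and Jak kinases were tested. The ligand genes Il6 and Lif did not exceed 1.11 and 0.970 FPKM in any library, and Osm reached 6.84 FPKM in region 1 and at most 0.864 in the other regions. In all, 3 listed genes were higher at the lesion than rostrally: the interleukin 6 receptor gene Il6r by 1.22, the kinase gene Tyk2 by 0.58 and Cntf, ciliary neurotrophic factor, by 0.55 (limma adjusted p = 0.000599, 0.0310 and 0.0449), 3 of 16 where 6.78% of all genes were. Cntf and Il6r were also higher caudally than rostrally, by 0.88 and 0.80, where 2.77% of all genes were. On the implanted side 1 gene, the kinase gene Jak1, was higher, by 0.33 (limma adjusted p = 0.0356), where 6.86% of all genes were. Leaving out stimulated animal 2, 8 of the 16 were called higher at the lesion than rostrally and 7 on the implanted side, where 15.7% and 21.6% of all genes were. The shared receptor subunit gene Il6st was lower in white matter than in cord by −1.22. Socs3, which Stat3 induces and whose product inhibits the pathway, ranged from 0.912 to 39.2 FPKM in region 1 and from 0.269 to 12.4 in region 2.

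Of 8 tested sphingosine 1-phosphate genes, Sgpl1, the lyase that degrades the ligand, was higher at the lesion than rostrally by 0.91 (limma adjusted p = 0.0035), 1 of 8 where 6.78% of all genes were called higher. It was also higher on the implanted side, by 0.67, together with the receptor gene S1pr5, by 0.70, and the phosphatase gene Sgpp1, by 0.33, 3 of 8 where 6.86% of all genes were. The receptor gene S1pr1 averaged 22.1 to 29.6 FPKM by region. Of 10 tested tenascins and tenascin-C receptors, 3 were higher at the lesion than rostrally, namely the integrin gene Itgb1 by 0.63, Tnr, a tenascin of perineuronal nets, by 0.33, and Egfr by 0.29, and the implanted side had 3 higher, Itgb1 by 0.66, the receptor phosphatase gene Ptprz1 by 0.46 and Tnr by 0.34, against the same 6.78% and 6.86% of all genes. Of the 2 lipocalin 2 receptors, Slc22a17 averaged 116 to 162 FPKM by region, far from the floor, and was lower at the lesion than rostrally by −0.47 (limma adjusted p = 0.0047) and than caudally by −0.36 (limma adjusted p = 0.0441), where 12.8% and 7.06% of all genes were called lower. Of 6 filament linkers and chaperones, Dst, a cytolinker gene, was higher on the implanted side by 0.35 (limma adjusted p = 0.0078). When stimulated animal 2 was left out, 5 of the 8 sphingosine 1-phosphate genes, 6 of the 10 tenascin genes and 2 of the 6 linkers were called higher on the implanted side, where 21.6% of all genes were. None of these lists held a gene that passed for stimulation in region 1 with all animals.

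Many of these calls on single genes were lost when an animal was left out, though not in every contrast. All 13 genes named from the lists on the implanted side kept their calls without stimulated animal 2, and 12 of them lost the call without any 1 of the other 3 animals. The exception was Ptprz1, which lost it without control animal 2 or stimulated animal 1. Of the 11 named between the lesion and the rostral cord, Amigo2, Cd109 and Il6r kept their calls without each animal in turn, and 8 lost them without at least 1. Both calls between the lesion and the caudal cord, of Amigo2 and Slc22a17, were lost without any 1 of the 4 animals. All 6 named between the caudal and the rostral cord were lost without at least 1 animal. Between white matter and cord, 20 of the 22 named kept their calls without each animal in turn.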

How the data were processed

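RNA was sequenced from 5 regions of 4 rats, giving 20 libraries. Per the study's methods and the submitters' processing notes, reads were checked with FastQC and MultiQC 1.6, aligned to the rat genome Rnor6 with TopHat 2.1.0, and summarised per gene with Cufflinks 2.2.1. The authors deposited FPKM values, raised to 0.1 where lower, and 39.7% of the deposited FPKM values stand at that floor. No counts were used, so a low value has no interval from its depth, and the floor understates changes of genes near it.

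Genes at or above 1 FPKM in any library were kept, and log2 FPKM was fitted with limma 3.58.1 in R 4.3.3 (lmFit, eBayes with trend), with Benjamini-Hochberg adjustment over all kept genes and a threshold of 0.05. Stimulation was fitted within each region on its 4 libraries, regions in 1 model of all 20, and differences of the stimulation effect on within-animal differences between regions. The tests were first tried on simulated data. Those libraries were drawn independently, so the trial does not show how the tests behave where libraries share an animal. Libraries of 1 group and number in different regions come from 1 animal. Their deviations from the region means correlated at 0.588 between regions 1 and 2 and 0.208 between regions 3 and 4, and at −0.033 to 0.134 in the other pairs, so the animal was tried as a block.

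Alternatives were log2(FPKM + 1), no filter, a filter of 1 FPKM in 2 libraries, quantile and upper-quartile scaling, eBayes without trend, 1 model of all libraries, blocks, and leaving out animals or 1 library. The members and gene lists were chosen with earlier results of these data known. In each list, up to 3 genes with the largest change among those past the threshold were named if their mean in a compared group reached 1 FPKM, with ligands, receptors and partners of the 7 given by level. Cd109 at the lesion and on the implanted side, where its means were under 1 FPKM, and the single cell type markers were named after their values were seen. The 5 genes most like the 7, and 1 for each, were taken by Pearson's r, and 1 of the 5 is not reported here. Promoter windows and motifs come from RefSeq GRCr8, in Python 3.11.15 with pandas 2.3.3.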

Additional observations from a re-analysis of the deposited data

Results flagged for a closer look

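Among the 35 groups of 4 libraries formed by the 7 genes and 5 regions, 5 held a library whose gap to its nearest neighbour, divided by the range of the group on the log2 scale, exceeded Dixon's critical value at the 95% level. That level flags about 1 group in 20 by chance only where the 4 libraries are independent draws of 1 kind. Here each group mixes stimulated and control libraries, and flags of different genes can fall on the same library. No share of all genes flagged by this rule is given, so the count is not a result about these genes in particular. In region 2, stimulated animal 2 was the far library for Gfap, with a ratio of 0.883 (678 FPKM against 70.1 to 91.4), for Tnc, with 0.913 (1.48 against 0.568 to 0.617), and for S1pr3, with 0.84 (7.37 against 1.18 to 1.58). In region 1 the same animal was far below the others for Synm, with 0.904 (4.18 FPKM against 6.63 to 6.96). In region 3, control animal 1 was far above the others for Lcn2, with 0.839 (0.572 FPKM against 0.1 to 0.132). The summed microglial and macrophage markers were at 258 FPKM in the region 2 library of stimulated animal 2 and at 49.9 to 58.4 in the other 3. The part of these cells in the 3 high values of region 2 was not tested.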

How the results depend on the processing

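In 862 of 960 single-gene values the direction and the side of the threshold held. None of the 7 genes passed for stimulation in regions 1, 2 or 3 under any setting. Scaling moved the median of all genes between the lesion and the caudal cord from −0.14 to −0.03 (quantile) or 0.018 (upper-quartile), and between white matter and cord from −0.18 to −0.045 or −0.098. Of all genes, the calls higher and lower moved with quantile scaling from 422 and 235 to 435 and 674 between caudal and rostral cord, from 1043 and 267 to 943 and 841 between the white matter sides, from 142 and 1074 to 195 and 275 between lesion and caudal cord, and from 3808 and 7169 to 5054 and 6018 between white matter and cord. Changes of Stat3, Gfap and Vim between lesion and caudal cord then turned to 0.10, 0.028 and 0.10 (quantile) and 0.092, 0.022 and 0.073 (upper-quartile), S1pr3 for stimulation in region 3 to 0.0017 and 0.018, the Stat3 difference of effects, region 1 less region 2, to 0.057 and 0.031, and Gfap for stimulation in region 5 to −0.22 (quantile). The same-numbered animals of the 2 groups are different animals and share only a number, and the replicate block called 1 gene in region 5, Lcn2, where 2.91% of all genes were called. Between lesion and rostral cord, quantile scaling, upper-quartile scaling and the animal as a block each called 2 of the 7, Tnc and Vim, where 12.7%, 13.9% and 8.79% of all genes were called higher. The block changed no other call of a contrast of regions.

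Leaving out 1 animal at a time, where 1 lone animal of a group is assumed to vary like the others, gave 0 to 1 genes called for stimulation in region 4 (1, Lcn2, without control animal 2, where 0.92% of all genes were called), 1 to 5 between lesion and rostral cord (0.874% to 15.7% of all genes higher), 0 to 4 between caudal and rostral cord (0.237% to 5.4%), 0 to 6 between the white matter sides (0.0855% to 21.6%), 3 to 5 between white matter and cord (40.1% to 51.1% lower) and 0 to 10 of 70 differences of effects, a setting chosen after seeing the data. The 10 came without stimulated animal 1: 3 between regions 1 and 4, 5 between regions 2 and 4, and 1 each between region 5 and regions 1 and 2, where 7.06%, 11%, 1.31% and 2.14% of all genes were called. Without the region 2 library of stimulated animal 2, 5 genes were called between the white matter sides, stimulation in region 2 gave −0.18 for Gfap, −0.25 for S1pr3, −0.38 for Vim, −0.49 for Lcn2 and −0.012 for Tnc, and white matter against cord gave −0.031 for Lcn2. Directions that turned without some animal had these ranges. For stimulation, Lcn2 ran from −1.91 to 4.17 in region 1. In region 2 Synm ran from −0.33 to 0.11, Gfap from −0.18 to 3.08, S1pr3 from −0.25 to 2.40, Vim from −0.38 to 2.21, Lcn2 from −0.49 to 4.37 and Tnc from −0.012 to 1.33. In region 3 Synm ran from −0.14 to 0.20, Stat3 from −0.27 to 0.0096, Gfap from −0.11 to 0.38, S1pr3 from −0.54 to 0.43, Vim from −0.39 to 0.23 and Lcn2 from −2.15 to 0.37. In region 4 Stat3 ran from −0.47 to 0.16, Gfap from −0.22 to 0.35, S1pr3 from −0.41 to 0.17 and Lcn2 from −3.67 to 0.58. In region 5 Synm ran from −0.17 to 0.27, Stat3 from −0.022 to 0.13, S1pr3 from −0.25 to 0.23, Vim from −0.014 to 0.37 and Lcn2 from −2.69 to 0.53. Between lesion and caudal cord Stat3 ran from −0.15 to 0.083, S1pr3 from −0.069 to 0.16 and Vim from −0.22 to 0.16, and between white matter and cord Lcn2 from −0.87 to 1.14 and Tnc from −0.0067 to 0.51. For the effect in region 1 less that in region 2, Synm ran from −0.81 to 0.32, Stat3 from −0.28 to 0.081, Gfap from −1.87 to 1.02, Vim from −0.72 to 1.17, Lcn2 from −2.23 to 0.61 and Tnc from −0.43 to 0.74. Apart from what the settings themselves leave out, the cause of these changes was not tested.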
